A study of Mus musculus with 11 samples.

Results

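Heparan sulfate genes were examined in hindlimb (HL) buds of mouse embryos that had lost Meis1 and Meis2. The set was a list of 33 gene symbols chosen by role: 5 linker enzymes, 5 polymerases, 12 modifying enzymes (sulfotransferases and an epimerase), 2 sulfatases and 9 core proteins. The table held 13720 genes and 30 of the 33. Ndst3, Ndst4 and Hs6st3 were not in it and were not analysed here. The filter on low values was 1 CPM (a read count scaled for library size) or more in at least 4 libraries. All 30 passed it, and 12996 genes of the table did.

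Each library came from both HLs of 1 embryo at E10, with about 30 to 33 somites. The first group held 6 double knockout embryos (M1KO;M2KO, here KO), and the second 5 wild-type (WT) embryos. In the study the Meis2 allele was conditional and Meis1 was either conditional or deleted throughout, and HoxB6CreER, switched on with 4-hydroxy-tamoxifen, recombined lateral plate cells in the HL-forming region. A whole HL also contains surface ectoderm, blood and vessels. Libraries fell into an Ovation set (3 KO, 2 WT) and a NEBNext set (3 KO, 3 WT), named for their kits. Ovation KO embryos were male, from litters 1, 3 and 4, whereas Ovation WT embryos were female, from litter 1, so sex and genotype cannot be told apart in that set. WT S_254 was heterozygous for Meis1 (genotype M1hetM2wt) but carried the label WT, and the other Ovation WT embryo was M1wtM2wt. The labels of the NEBNext embryos name HoxB6CreER for KO only and give no sex or litter.

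Heparan sulfate is a long sugar chain built in the Golgi on a short linker attached to a core protein. EXT1 and EXT2 together extend the chain, sulfotransferases and an epimerase then modify stretches of it, and the secreted sulfatases SULF1 and SULF2 take 6-O-sulfate groups off at the cell surface. The resulting pattern decides how FGFs and their receptors, WNTs, BMPs and Hedgehog proteins are held, and mouse limb outgrowth depends on it: loss of Ext1 in limb mesenchyme shortens and distorts limbs.

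For the libraries as a whole, CPM summed to between 754534 and 805762, and correlations across genes between pairs of libraries lay between 0.964 and 0.984. Read depth is unknown for these batch-corrected values, so no counting interval is given. The targeted transcripts did not separate the groups. Meis1 ranged from 110 to 158 CPM in KO and 106 to 150 CPM in WT, and Meis2 from 176 to 285 CPM in KO and 180 to 239 CPM in WT. Gene-level CPM do not show whether the targeted exons are present, so these levels do not check the labels. The limb mesenchyme markers Prrx1, Tbx4 and Pitx1 were in the table, as were all 12 markers on that list.

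Promoter sequence was examined because the deleted factors bind DNA, MEIS proteins recognizing the hexamer TGACAG. The study itself mapped Meis binding in limb buds by ChIP-seq (sequencing of DNA bound by a protein) and found a preference for distal enhancers. It also reported that genes for heparan sulfate and heparin synthesis were significantly associated with the bound sites. The p-values there, for sites shared by forelimb and hindlimb buds, had no adjustment for multiple comparisons. The mapped sites were not used here. RefSeq start-site windows on GRCm38.p6, from 250 bases before to 50 bases after a start, were found for 24 of the 33 symbols (28 windows). None was found for Sulf1, Ext1, Xylt1, Extl3, Ndst1, Ndst4, Gpc1, Gpc6 or Sdc2. The hexamer, on either strand, was in 7 of the 28 windows (25%) and in 6300 of 32851 windows of all genes (19.2%). The windows that held it belonged to Ext2, Extl2, Glce, Hs6st1, Hs3st3a1 and Ndst3, the last with 2 windows. Median GC content was 66.3% over the listed genes and 52.7% over all windows. A match of 6 letters is a description of the sequence and not a binding site.

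Windows are printed for 4 genes: Ext2, the partner of Ext1 in the polymerase, Sulf2, the paralogue of Sulf1, and Hs3st3a1 and Hs3st3b1, neighbouring paralogues on chromosome 11 whose estimates had opposite signs. Each runs 5′ to 3′ on the strand of its gene, with the hexamer or its reverse complement in capitals. The Ext2 window, chr2:93822519-93822818 on the minus strand, holds the reverse complement CTGTCA from 92 bases before the start. The Hs3st3a1 window, chr11:64435082-64435381 on the plus strand, holds TGACAG from 17 bases after the start. The windows of Hs3st3b1, chr11:63922235-63922534 on the minus strand, and Sulf2, chr2:166155634-166155933 on the minus strand (the more upstream of its windows), hold neither.
Ext2: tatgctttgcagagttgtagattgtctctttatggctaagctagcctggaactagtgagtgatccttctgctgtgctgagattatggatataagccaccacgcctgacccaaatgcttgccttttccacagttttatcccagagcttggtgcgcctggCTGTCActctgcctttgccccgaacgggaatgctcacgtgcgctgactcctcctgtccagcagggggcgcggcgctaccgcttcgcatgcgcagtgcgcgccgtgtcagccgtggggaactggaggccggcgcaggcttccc
Hs3st3a1: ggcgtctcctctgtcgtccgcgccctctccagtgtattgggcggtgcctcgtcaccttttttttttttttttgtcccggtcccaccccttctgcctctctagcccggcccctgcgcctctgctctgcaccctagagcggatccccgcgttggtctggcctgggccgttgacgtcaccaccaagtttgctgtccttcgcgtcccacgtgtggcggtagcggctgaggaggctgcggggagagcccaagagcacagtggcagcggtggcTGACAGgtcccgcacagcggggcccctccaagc
Hs3st3b1: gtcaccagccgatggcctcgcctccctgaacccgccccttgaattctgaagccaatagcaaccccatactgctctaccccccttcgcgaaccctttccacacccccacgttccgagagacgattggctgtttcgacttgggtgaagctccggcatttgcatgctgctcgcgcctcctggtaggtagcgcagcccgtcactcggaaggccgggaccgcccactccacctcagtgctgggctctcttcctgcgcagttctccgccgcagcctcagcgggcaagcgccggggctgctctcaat
Sulf2: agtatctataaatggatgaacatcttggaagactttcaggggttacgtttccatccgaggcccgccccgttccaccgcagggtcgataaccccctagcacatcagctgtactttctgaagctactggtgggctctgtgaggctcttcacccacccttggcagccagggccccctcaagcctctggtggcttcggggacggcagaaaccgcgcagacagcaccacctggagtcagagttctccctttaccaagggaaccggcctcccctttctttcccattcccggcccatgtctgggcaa

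Of the 30 genes, Sulf1 was higher in KO HLs and Ext1 was lower. The other 28 did not pass the test, limma on log2(CPM + 0.5) with library set as a term and an adjusted p under 0.05 over all 12996 genes. Over all genes tested, 1.04% were called higher, 1.05% lower and 2.09% either way. At an unadjusted p under 0.05 there were 5 of the 30 (16.7%), beside 14.7% of all genes. KO and WT values did not overlap for 2 of the 30, again Sulf1 and Ext1, beside 3.49% of all genes. The median log2 fold change (KO over WT) was -0.04 over the 30 and 0.0004 over all genes, and the median absolute log2 change was 0.127 in both. Estimates lay above 0 for 13 genes and below 0 for 17. The median size of change over the 30 genes was thus that of the table as a whole, and the shares at an unadjusted p were close.

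**Figure D1:**
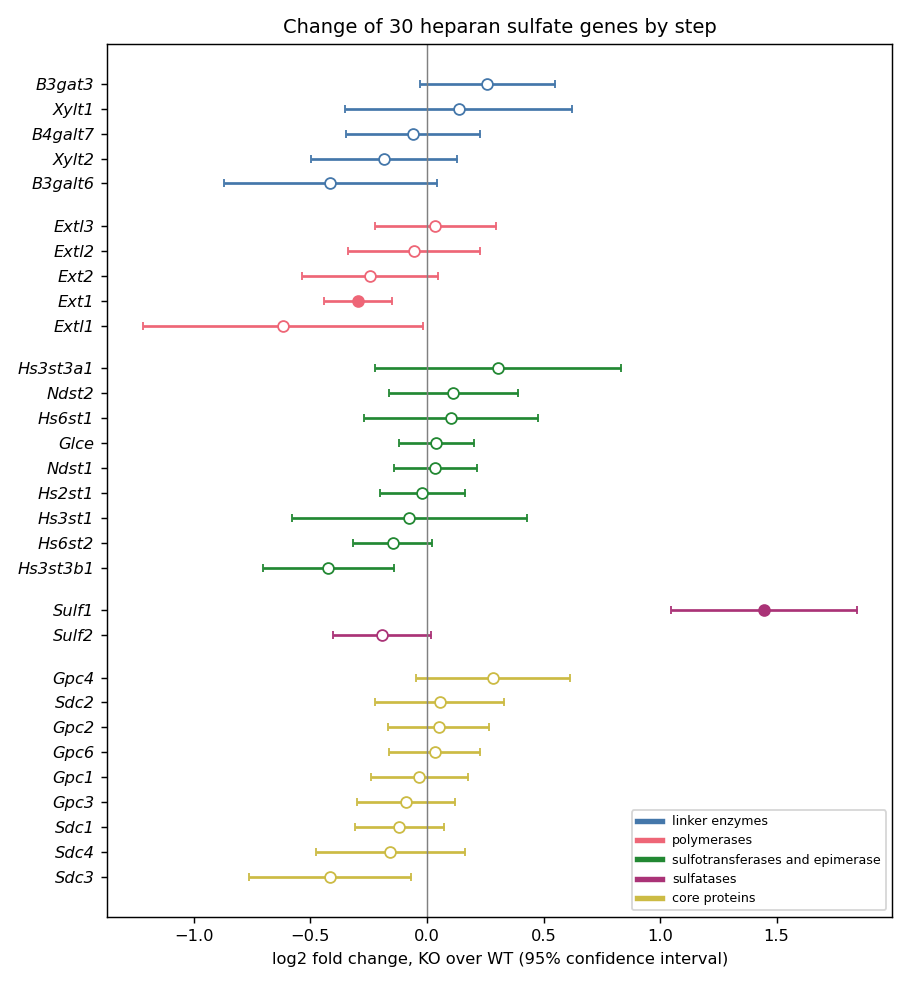
Fitted log2 fold change of KO over WT on the log2(CPM + 0.5) scale for each of the 30 genes, with 95% confidence intervals, grouped by step. Filled points mark the genes past an adjusted p of 0.05. Sulf1 at 1.45 stands to the right of all others, and Ext1 at -0.29 has the narrowest interval.

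Sulf1 (chromosome 1, 12692277 to 12861192, plus strand, GRCm38), a secreted 6-O-endosulfatase, showed the largest change of the set. It lay at 94.9, 84.5 and 81.7 CPM in KO S_258, S_280 and S_284 and at 113, 111 and 82.5 CPM in KO 2, 3 and 4, against 30.9 and 37.0 CPM in WT S_252 and S_254 and 21.4, 35.2 and 55.6 CPM in WT 1, 3 and 4. All 6 KO libraries were above all 5 WT libraries, the lowest KO value being 81.7 CPM and the highest WT value 55.6 CPM. The means were 94.5 ± 14.1 CPM in KO (SD, n = 6) and 36.0 ± 12.5 CPM in WT (SD, n = 5). The fitted log2 fold change was 1.45 ± 0.18 (SE), with a 95% interval of 1.05 to 1.84, a 2.72-fold higher level in KO with a limma adjusted p of 0.00275.

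Both library sets showed the Sulf1 difference. The log2 fold change was 1.35 in the Ovation set (limma adjusted p = 0.0013, with 1.15% of all genes called in that set alone) and 1.52 in the NEBNext set (adjusted p = 0.0953, with 0.0231% of all genes called). The test of a difference between sets gave an unadjusted p of 0.651. With each of the 11 libraries left out in turn the adjusted p ran from 0.0009 to 0.0138, and Sulf1 passed every time. In a whole bud, more cells that transcribe Sulf1 and more Sulf1 RNA per cell cannot be told apart.

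Some cell type markers moved in the same libraries. Early cartilage markers summed to between 141 and 230 CPM in KO and between 132 and 167 CPM in WT. Of 6 tested, 2 were higher, Sox5 and Col11a1, beside 1.04% of all genes (Acan and Matn1 were not in the table). The others, Sox9, Sox6, Col2a1 and Col9a1, did not pass, and their KO and WT ranges overlapped. Col2a1 lay between 37.2 and 66.1 CPM in KO and between 36.9 and 71.2 CPM in WT. Ranges of Col11a1 overlapped as well. The part of cartilage cells in the Sulf1 difference was not tested. Markers of limb mesenchyme summed to between 1005 and 1289 CPM in KO and between 872 and 1118 CPM in WT. Of 12 tested, 1 was lower (Msx1), beside 1.05% of all genes.

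Sulf2 (chromosome 2, 166073089 to 166155663, minus strand), which acts on the same sulfate group as Sulf1, did not pass the test. KO libraries had 145, 140 and 190 CPM in S_258, S_280 and S_284 and 132, 134 and 147 CPM in KO 2, 3 and 4, against 148 and 156 CPM in WT S_252 and S_254 and 180, 186 and 172 CPM in WT 1, 3 and 4. In words, 5 KO libraries lay below every WT library and KO S_284 lay above every one. Mean levels were 148 ± 21.5 CPM in KO and 169 ± 16.1 CPM in WT, a log2 fold change of -0.19 with an adjusted p of 0.389. Without KO S_284 the log2 fold change was -0.27 with an adjusted p of 0.109.

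Because the sulfatases share a substrate, their balance was also expressed per length, as CPM per kilobase of exon. Sulf2 was the more abundant in both groups, at 25.2 ± 3.66 CPM per kilobase in KO and 28.7 ± 2.74 in WT, while Sulf1 was at 8.36 ± 1.25 in KO and 3.19 ± 1.11 in WT. Sulf1 made up 25.1 ± 4.69% of their sum in KO (range 18.2 to 30.7%) and 9.97 ± 3.11% in WT (range 5.82 to 14.4%). The shares did not overlap, and Sulf2 remained the larger part in each of the 11 libraries. These shares rest on the same Sulf1 values and are no separate result.

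**Figure D2:**
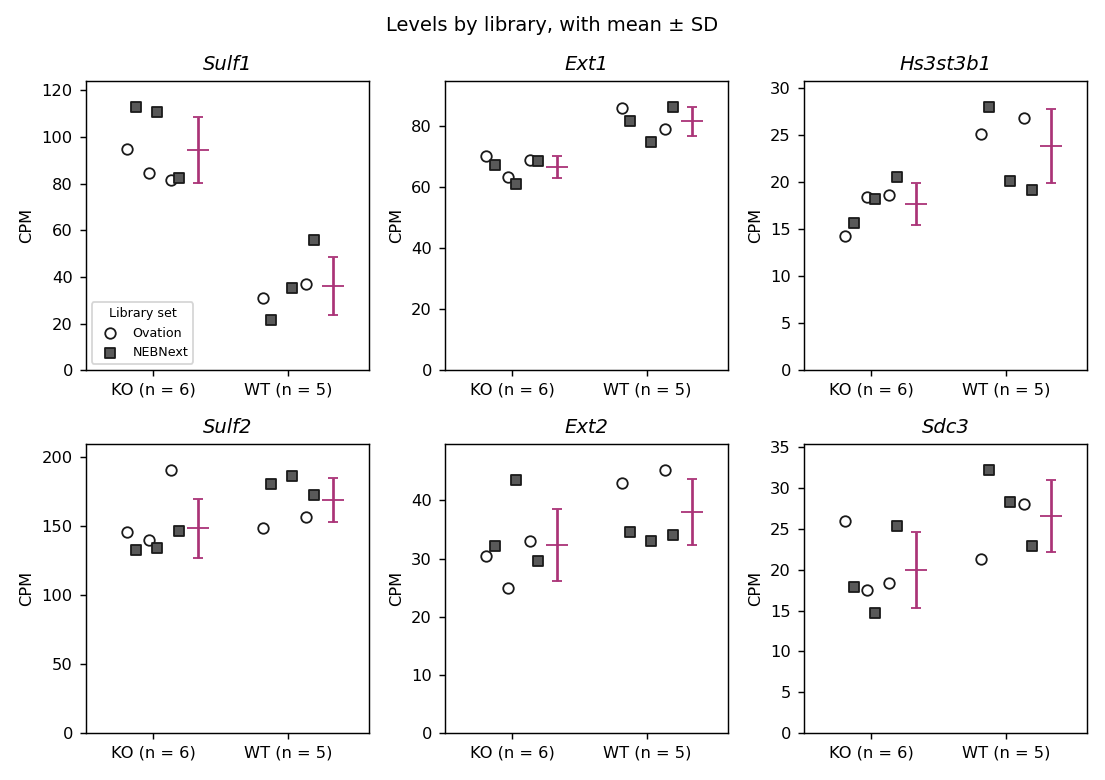
CPM of Sulf1, Ext1, Hs3st3b1, Sulf2, Ext2 and Sdc3 in each library, KO left of WT, with open circles for the Ovation set, filled squares for the NEBNext set and mean ± SD beside them. KO and WT points are apart for Sulf1 and Ext1 and overlap for the other genes, where Sulf2 has 1 KO library at 190 CPM above all WT libraries.

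Ext1 (chromosome 15, 53064038 to 53346159, minus strand), which with Ext2 forms the enzyme that extends the chain, was lower in KO by a small amount. Its levels were 70.2, 63.3 and 69.0 CPM in KO S_258, S_280 and S_284 and 67.4, 61.1 and 68.7 CPM in KO 2, 3 and 4, against 85.9 and 79.1 CPM in WT S_252 and S_254 and 81.8, 75.0 and 86.2 CPM in WT 1, 3 and 4. The highest KO library, at 70.2 CPM, lay under the lowest WT library, at 75.0 CPM. Means of 66.6 ± 3.63 CPM in KO and 81.6 ± 4.75 CPM in WT gave a log2 fold change of -0.29 ± 0.07 (SE), with a 95% interval of -0.44 to -0.15. This is 1.23-fold lower in KO, with a limma adjusted p of 0.0397.

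The direction of Ext1 was alike in both sets, with a log2 fold change of -0.29 in the Ovation set (limma adjusted p = 0.234) and -0.30 in the NEBNext set (adjusted p = 0.282). The call was close to the threshold. It was lost when any of 9 of the 11 libraries was left out and kept without KO 4 or without WT 3. Over all 11 such fits the adjusted p ran from 0.0379 (without WT 3) to 0.119 (without WT S_252), and the log2 fold change from -0.32 to -0.27. Of 6 myeloid and platelet markers tested, the platelet genes Pf4 and Ppbp were lower in KO, beside 1.05% of all genes. Adgre1, Gp9, Ptprc and Tyrobp were not in the table. The KO and WT ranges of the other tested markers, Csf1r, Cd68, Itga2b and Fcer1g, overlapped. The list summed to between 7.28 and 13.0 CPM in KO and between 12.5 and 41.5 CPM in WT, which overlapped narrowly. The part of platelet or myeloid cells in the Ext1 difference was not tested.

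Ext2 (chromosome 2, 93661028 to 93822568, minus strand), whose window is printed above, spread more widely. It ranged from 24.9 to 43.6 CPM in KO with a median of 31.3 CPM, against 43.0 and 45.2 CPM in WT S_252 and S_254 and 34.6, 33.0 and 34.1 CPM in WT 1, 3 and 4. The groups overlapped through KO 3, at 43.6 CPM, and narrowly through KO S_284, at 33.1 CPM. Its log2 fold change was -0.24 with an adjusted p of 0.442. Within sets it was -0.58 in Ovation and 0.03 in NEBNext, a difference with an unadjusted p of 0.0150 and an adjusted p of 0.270.

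The EXT-like genes gave no call. Extl3, which adds the first N-acetylglucosamine that commits a linker to heparan sulfate, averaged 73.1 ± 11.4 CPM in KO and 71.3 ± 10.5 CPM in WT (log2 fold change 0.04). Extl2, a transferase that can add a sugar to the linker and end its growth, had a log2 fold change of -0.06. Extl1, an N-acetylglucosamine transferase of the family, was the least abundant of the 30 per kilobase, between 0.415 and 1.74 CPM in KO with a median of 0.924 CPM, against 1.70 and 1.37 CPM in WT S_252 and S_254 and 1.14, 2.62 and 1.50 CPM in WT 1, 3 and 4. Its estimate, -0.62 on the log2 scale, had an interval of -1.22 to -0.02 and an adjusted p of 0.325. For the 5 polymerase genes together the count was 0 higher and 1 lower, with a median log2 fold change of -0.24.

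The linker is laid down by xylosyl, galactosyl and glucuronosyl transferases, which also serve chondroitin sulfate. None of these 5 genes passed the test, and their median log2 fold change was -0.06. B3galt6, a galactosyltransferase, ranged from 3.40 to 7.90 CPM in KO with a median of 5.10 CPM, against 8.31 and 6.87 CPM in WT S_252 and S_254 and 8.66, 5.28 and 7.33 CPM in WT 1, 3 and 4. B3gat3, the glucuronosyltransferase that completes the linker, ranged from 9.04 to 11.7 CPM in KO with a median of 10.3 CPM, against 9.47 and 6.90 CPM in WT S_252 and S_254 and 7.84, 10.2 and 8.33 CPM in WT 1, 3 and 4. For both genes the groups overlapped. Log2 fold changes were -0.41 for B3galt6 (limma adjusted p = 0.393) and 0.26 for B3gat3 (adjusted p = 0.405). The remaining linker genes lay between -0.18 (Xylt2) and 0.14 (Xylt1), with B4galt7 at -0.06.

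Modification of the chain starts with N-deacetylase/N-sulfotransferases (Ndst genes), continues with the epimerase Glce and the 2-O-sulfotransferase Hs2st1, and ends with 6-O- and 3-O-sulfotransferases (Hs6st and Hs3st genes). Of 9 such genes tested, 0 passed the adjusted threshold and 1 passed at an unadjusted p under 0.05, and the median log2 fold change was 0.04. The central enzymes were close to level. Ndst1 averaged 87.5 ± 8.65 CPM in KO and 85.3 ± 6.33 CPM in WT, Glce 69.0 ± 4.24 CPM in KO and 67.1 ± 5.30 CPM in WT, and Hs2st1 70.6 ± 4.99 CPM in KO and 71.7 ± 7.31 CPM in WT. Their 95% intervals lay within -0.20 and 0.21 on the log2 scale, so a change of Sulf1's size was outside each of them.

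The 1 gene of this step at an unadjusted p under 0.05 was Hs3st3b1 (chromosome 11, 63885792 to 63922290, minus strand), which adds the rare 3-O-sulfate group. KO libraries had 14.3, 18.4 and 18.7 CPM in S_258, S_280 and S_284 and 15.7, 18.2 and 20.6 CPM in KO 2, 3 and 4, against 25.1 and 26.9 CPM in WT S_252 and S_254 and 28.0, 20.2 and 19.2 CPM in WT 1, 3 and 4. Only KO 4 reached into the WT range. The log2 fold change was -0.42 with an adjusted p of 0.128, and with single libraries left out the adjusted p ran from 0.0838 to 0.314. Its neighbour Hs3st3a1, an enzyme of the same activity, averaged 5.75 ± 1.71 CPM in KO and 4.57 ± 1.32 CPM in WT, a log2 fold change of 0.30 with an adjusted p of 0.638. The printed windows of the 2 genes differ in that only that of Hs3st3a1 holds the hexamer, from which nothing follows about binding. Because they are close paralogues, estimated counts could be divided between them differently by another counting method.

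Sulf enzymes act on 6-O-sulfate, which the Hs6st enzymes add. Hs6st2, on the X chromosome, ranged from 37.7 to 47.0 CPM in KO with a median of 42.4 CPM, against 50.0 and 45.8 CPM in WT S_252 and S_254 and 47.0, 46.0 and 43.7 CPM in WT 1, 3 and 4, which overlapped. Its log2 fold change was -0.15 with an adjusted p of 0.424, and that of Hs6st1 was 0.10 with an adjusted p of 0.858. Ndst2, a further N-deacetylase/N-sulfotransferase, and Hs3st1, a 3-O-sulfotransferase at under 2.2 CPM in all libraries, had log2 fold changes of 0.11 and -0.07.

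Core proteins carry the chains: glypicans (Gpc genes) on a lipid anchor and syndecans (Sdc genes) across the membrane. None of the 9 passed the test, and their median log2 fold change was -0.03. Sdc3 gave the smallest p of them. It lay at 26.0, 17.6 and 18.3 CPM in KO S_258, S_280 and S_284 and at 17.8, 14.6 and 25.4 CPM in KO 2, 3 and 4, against 21.3 and 28.1 CPM in WT S_252 and S_254 and 32.2, 28.3 and 22.9 CPM in WT 1, 3 and 4. KO S_258 and KO 4 sat among the WT libraries and the other KO libraries below them, and the log2 fold change was -0.42 with an adjusted p of 0.241. Gpc4 ranged from 24.0 to 37.1 CPM in KO with a median of 27.7 CPM, against 22.5 and 22.9 CPM in WT S_252 and S_254 and 22.0, 34.3 and 18.7 CPM in WT 1, 3 and 4. The groups overlapped through WT 3, with a log2 fold change of 0.28 and an adjusted p of 0.425.

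Gpc3, whose loss in mice gives overgrowth, was the most abundant of the 30 genes per kilobase. It averaged 163 ± 21.1 CPM per kilobase in KO and 173 ± 15.5 in WT, and made up 67.0 ± 3.75% of the summed core protein level in KO and 68.1 ± 1.92% in WT. All 5 glypicans together made up 83.5 ± 2.24% of that sum in KO and 83.0 ± 0.797% in WT. The log2 fold change of Gpc3 was -0.09 with an adjusted p of 0.753. Gpc3, Gpc4 and Hs6st2 are on the X chromosome. In the Ovation set, where the KO embryos were male and the WT embryos female, their log2 fold changes were -0.20, 0.38 and -0.20. In the NEBNext set, whose labels give no sex, they were -0.004, 0.21 and -0.10. The limma test of a difference between sets gave unadjusted p of 0.335, 0.598 and 0.514. The part of sex was not tested.

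Sdc1, the next core protein per kilobase and one common on epithelia, averaged 23.9 ± 2.80 CPM per kilobase in KO and 25.9 ± 1.94 in WT, with a log2 fold change of -0.12 and an adjusted p of 0.602. Markers of surface ectoderm and apical ridge summed to between 258.4 and 434 CPM in KO and between 327 and 422 CPM in WT. Of 15 tested, 2 were lower (Fgf8 and Sp8), beside 1.05% of all genes. The remaining core proteins had log2 fold changes between -0.16 (Sdc4) and 0.05 (Sdc2), with Gpc1, Gpc2 and Gpc6 between -0.03 and 0.05.

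The levels spanned a wide range within each step. Per kilobase, the most abundant linker gene was B3gat3 in KO (3.96 ± 0.383) and B4galt7 in WT (3.32 ± 0.335), where B3gat3 at 3.30 ± 0.505 did not differ from it beyond the spread. Extl3 led the polymerases at 12.1 ± 1.88 CPM per kilobase in KO and 11.8 ± 1.72 in WT, ahead of Ext1 at 8.25 ± 0.449 in KO and 10.1 ± 0.588 in WT. Ndst1 led the modifying enzymes at 10.6 ± 1.05 in KO and 10.3 ± 0.765 in WT, next to Glce at 10.1 ± 0.621 in KO and 9.82 ± 0.776 in WT. In WT the order began with Gpc3, Sulf2 and Sdc1, and Sulf1 stood at place 23 of 30. Well below Sdc1 followed Extl3, Ndst1, Gpc6, Gpc1, Ext1 and Glce in WT. Among these genes each was within its spread of the next.

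**Figure D3:**
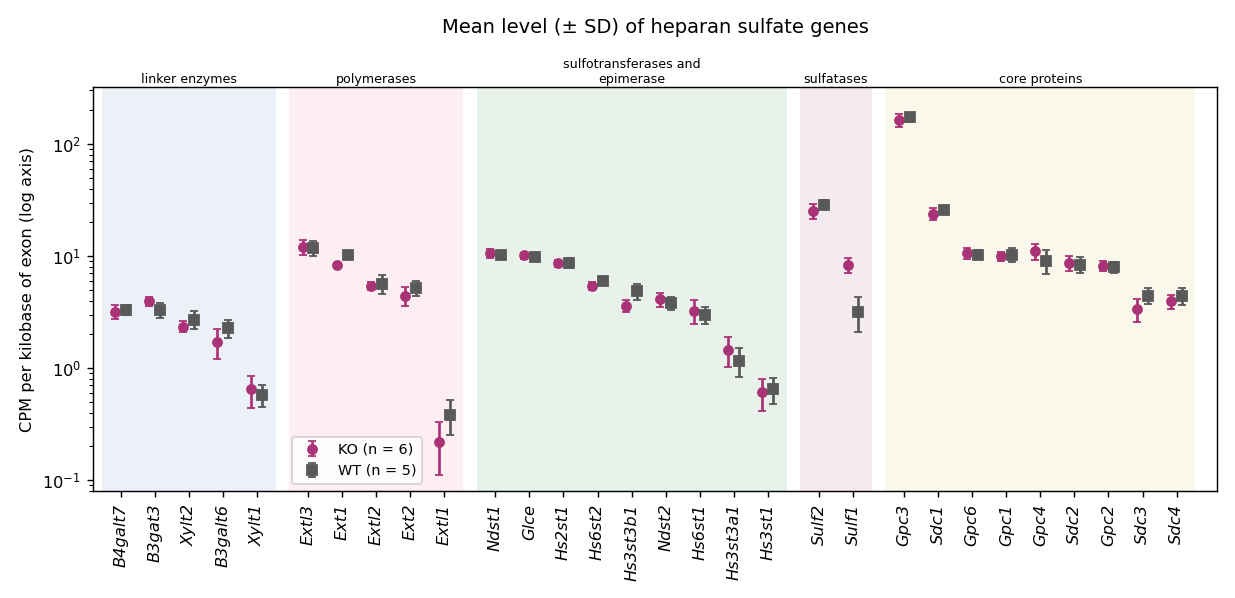
Mean level ± SD of the 30 genes in CPM per kilobase of exon on a log axis, ordered within each step by the WT level, with KO circles left of WT squares. Gpc3 lies above 100 in both groups, and the KO and WT means of Sulf1, 8.36 and 3.19 CPM per kilobase, stand apart beyond their spread.

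Whether the change differed between library sets was asked with an interaction term. None of the 12996 genes passed an adjusted p of 0.05, and 1694 (13.0%) did at an unadjusted p under 0.05. Among the 30 there were 5 at that level (16.7%): Sdc2, Extl3, Ext2, Xylt2 and Sulf2, with adjusted p of 0.210 or more. Sdc2 had log2 fold changes of -0.30 in Ovation and 0.34 in NEBNext (unadjusted p = 0.0068 in the limma fit), and its KO libraries were at 25.6 to 37.0 CPM with a median of 29.6 CPM, against 36.2 and 31.8 CPM in WT S_252 and S_254 and 27.1, 28.4 and 23.8 CPM in WT 1, 3 and 4. Extl3 had 0.35 in Ovation and -0.22 in NEBNext, with 57.7 to 89.4 CPM in KO and a median of 73.7 CPM, against 60.7 and 62.1 CPM in WT S_252 and S_254 and 69.8, 84.5 and 79.3 CPM in WT 1, 3 and 4. Xylt2 had 0.18 in Ovation and -0.47 in NEBNext, with 8.25 to 10.8 CPM in KO and a median of 9.25 CPM, against 8.28 and 9.78 CPM in WT S_252 and S_254 and 11.6, 13.5 and 10.7 CPM in WT 1, 3 and 4. The share among the 30 was near that of all genes and none passed after adjustment. A difference between sets is thus not established for any of these genes. Over the 30 genes 16 had the same sign in both sets, and of all genes 48.0% had opposite signs.

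**Figure D4:**
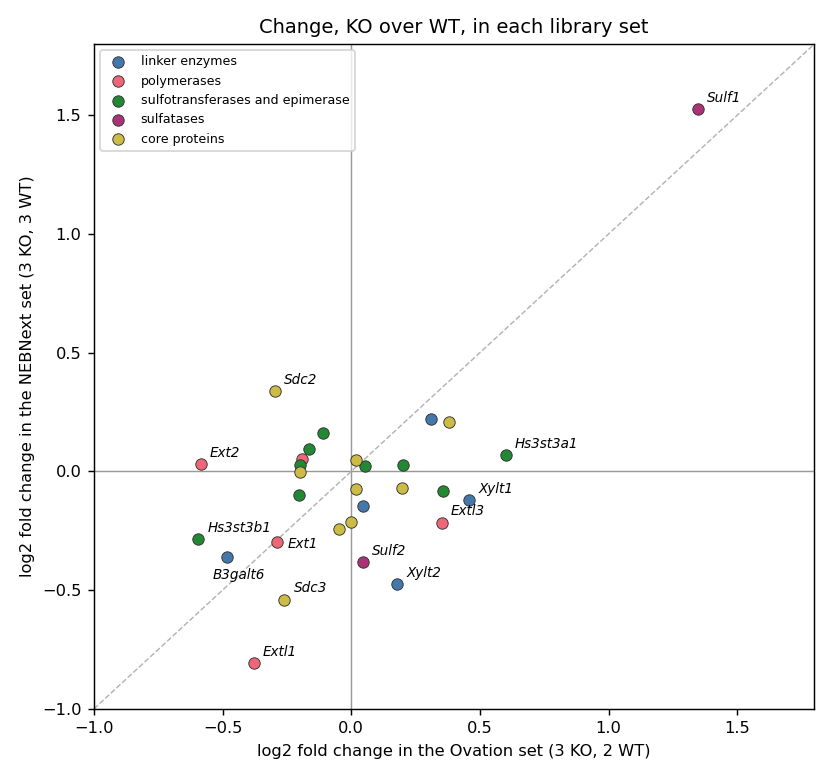
Log2 fold change of KO over WT in the Ovation set (horizontal) and in the NEBNext set (vertical) for the 30 genes, coloured by step, with a dashed line of equality. Sulf1 is far from the rest at 1.35 and 1.52, Ext1 lies on the line near -0.29 in both, and Sdc2 and Ext2 fall in the upper left quadrant, where the signs are opposite.

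Further genes of the pathway were read from lists of 60 symbols, of which 48 were in the table and 46 were tested: other heparan sulfate enzymes and cores, precursor supply, lysosomal breakdown, chondroitin sulfate synthesis, and chondroitin sulfate cores with hyaluronan genes. By limma 0 of 46 passed an adjusted p of 0.05, beside the 2.09% of all genes, and 9 (19.6%) had an unadjusted p under 0.05. The lowest adjusted p, 0.102, belonged to Notum, a secreted enzyme that inactivates WNT proteins, named here after its values were seen. Notum had 0.496 to 3.41 CPM in KO and 2.17 to 6.39 CPM in WT, which overlapped, and a log2 fold change of -1.17. Median log2 fold changes of the lists were -0.09 for the other heparan sulfate genes, -0.03 for precursor supply, 0.20 for lysosomal breakdown, -0.11 for chondroitin sulfate synthesis and 0.02 for chondroitin sulfate cores and hyaluronan genes.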

How the data were processed

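The submitters' processing notes name CASAVA 1.8.2, cutadapt 1.3 and RSEM 1.2.3 with GRCm38 for the Ovation libraries, and bcl2fastq, cutadapt, RSEM and limma, each with no version, for the NEBNext libraries. From the estimated counts the authors made TMM-scaled, ComBat-corrected values and deposited these as CPM on a linear scale, with no value at 0. After that correction 96.5% of genes had mean log2 levels in the Ovation and NEBNext sets that differed by under 0.1. The sources used here do not state whether ComBat was given the genotypes, and such a correction can understate the spread. Read totals are unknown.

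Here limma 3.58.1 (R 4.3.3) was fitted to log2(CPM + 0.5), using terms for group and library set and a mean-variance trend (8 residual degrees of freedom). Tests were two-sided and adjusted by Benjamini-Hochberg over 12996 genes, and 724 fell under the filter, which was read on all 11 libraries in every fit. Fold changes include the pseudocount. The model was tested on simulated data with independent normal noise, no library set effect and no batch correction. That test therefore cannot show how the correction affects the spread. Interaction fits, within-set fits and other pseudocounts, filters, scalings, variance models and subsets were also run. Positions and exon lengths came from GENCODE M21, start-site windows from RefSeq. Values of the libraries (for some genes the lowest, median and highest of the 6 KO libraries in place of each) are given for genes past the threshold, for the 2 of each step with the smallest p, and for genes whose sets differed at an unadjusted p under 0.05. The members and lists were chosen with earlier results of these data known. A result of 1 marker list is not reported here. Python 3.11.15, pandas 2.3.3, numpy 2.4.6 and matplotlib 3.10.9 were used for tables and plots.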

Additional observations from a re-analysis of the deposited data

Results flagged for a closer look

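In 7 of the 60 groups of values (30 genes in KO and in WT, 11.7%) a single library stood apart by Dixon's test. For normally distributed values the test would flag about 1 of 20. The share over all genes was not taken, so the count is not a result about these genes. Sulf2 reached 190 CPM in KO S_284, where the next KO library had 147 CPM. Hs3st1 reached 2.19 CPM in KO 3, with the next KO library at 1.36 CPM. Xylt1 was at 3.36 CPM in WT S_254, the embryo with 1 mutant Meis1 allele, and at 5.88 CPM in the next WT library. WT 4 held the high values of Ndst1, 96.4 CPM with the next at 84.2 CPM, and of Gpc1, 65.6 CPM with the next at 52.6 CPM. WT 3 had the low value of Hs2st1, 59.0 CPM with the next at 72.1 CPM, and the high value of Gpc4, 34.3 CPM with the next at 22.9 CPM. WT 3 also had the highest sum of endoderm markers, 169 CPM.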

How the results depend on the processing

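Over all genes 272 passed. This became 102 with litter 1 alone in the Ovation set, 150 in the Ovation set alone, 3 in the NEBNext set alone, 184 with no mean-variance trend, and 106 (without KO 2) to 337 (without KO 4) with single libraries left out. Of the heparan sulfate genes 2 passed. Sulf1 alone (1 gene) passed when libraries were rescaled to equal CPM totals, with no trend, with litter 1 alone and in the Ovation set alone, 0 passed in the NEBNext set alone, and 1 to 2 with single libraries left out. The adjusted p of Ext1 was 0.0582 after rescaling, 0.0874 with no trend and 0.164 with litter 1 alone. With a replicate block of the numbers 3 and 4, which leaves out KO 2 and WT 1, 64 genes passed, 1 of them a heparan sulfate gene. Deviations from the group mean within the set correlated at 0.201 for KO 3 with WT 3 and -0.0368 for KO 4 with WT 4. For unlike numbers they correlated at -0.160 (KO 3 with WT 4) and -0.0879 (KO 4 with WT 3). So few libraries cannot decide whether the numbers mark pairs. Robust variances gave 13 genes whose change differed between sets, in place of 0, and none was a listed gene.

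Among values of the named genes under alternatives, 320 kept their direction and side of the threshold, 16 lost a call and 13 changed sign, the last all in genes without a call. The log2 fold change of Extl3 ran from -0.032 (without WT S_252) to 0.12 (without KO 3) with single libraries left out, and was -0.040 with litter 1 alone and -0.22 in NEBNext. That of Sdc2 ran from -0.016 (without WT 4) to 0.16 (without WT S_252), and was -0.019 with the block and -0.30 in Ovation. Sulf2 was at 0.045 and Xylt2 at 0.18 in Ovation, and Ext2 at 0.031 in NEBNext. With read depth unknown, counting noise in the lowest genes cannot be sized.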
